A study of Schmidtea mediterranea with 50 samples.

Results

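The subject here is a pair of ferritin transcripts of the planarian *Schmidtea mediterranea*, SMED30017554, annotated as ferritin, and SMED30022321, annotated as ferritin, middle subunit. They are 2 of 35057 transcripts in the table of expression values and were picked by name because their late levels under RNAi went in opposite directions. The levels from day 12 onwards that led to this choice are therefore given as a description with no test. Tests on the pair are restricted to days 3, 6 and 9 and to the control animals over time.

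RNA came from whole worms of the asexual strain CIW4, pooled at 10 worms per replicate, with 3 biological replicates per group. All animals, controls included, were on a schedule of 3 feedings of double-stranded RNA in liver paste, on days 0, 3 and 6, so that those collected on day 3 had not received all of them. The control food carried *unc22*, which the study used as its control in all RNAi feedings. The other foods carried *chd4*, which encodes a chromatin remodelling ATPase, or *p53*, which encodes a transcription factor. Controls and *p53*(RNAi) animals were collected on days 3, 6, 9, 12, 15 and 18 and *chd4*(RNAi) animals on days 3, 6, 9, 12 and 15, which makes 17 groups and 50 libraries, with 2 replicates in *p53*(RNAi) at day 18. The paper reports that *chd4*(RNAi) animals intended for the last collection had died before it, so that this group is missing. Whether the state of the animals before death affected the late *chd4*(RNAi) levels was not tested. Expression is given in RPKM, read numbers scaled to the length of the transcript and to the depth of the library. The libraries held 13.9 M to 26.3 M reads (M, mega), with a median of 19.1 M. The targeted gene was below every control of its day in 32 of 32 RNAi libraries, at 5.21 to 29.0% of the control mean. *p53*(RNAi) replicate 1 of day 9 stood furthest from the other replicates of its group, with an SD of log2 differences of 0.416 over all tested transcripts, where the closest library had 0.227. Control replicate 1 of day 12 (0.329) and control replicate 2 of day 6 (0.322) came next. Both *p53*(RNAi) libraries of day 18 had 0.319, but each was compared with a single library, so this value cannot be ranked with those of groups of 3. Values without these libraries are given where they matter.

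Ferritin subunits assemble into a hollow shell that takes up ferrous iron, oxidises it and stores it as a mineral that can be drawn on later. Storage keeps free iron from feeding reactions that make oxygen radicals, and in many animals ferritin synthesis follows the iron supply. Vertebrate shells mix subunits that carry the oxidising centre with subunits that favour mineral formation, while some invertebrates make a secreted ferritin, snail yolk ferritin being a known case. The names of the planarian transcripts are descriptions of their best protein match, so that "middle subunit" or "soma" does not fix a role in this animal.

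SMED30017554 (recovered length 581 bases) was the most abundant of the 6 annotated ferritin transcripts in the controls. Its control level was 181, 167 and 181 RPKM at day 3 and 179, 178 and 156 RPKM at day 9. At day 15 the controls stood at 156, 147 and 143 RPKM, and at day 18 at 151, 156 and 135 RPKM. The control level did not pass a test of change between day 3 and day 9 (log2 difference -0.05, SE 0.216, limma adjusted p = 0.977) or between day 9 and day 18 (-0.22, SE 0.216, adjusted p = 0.547). Between these days 0.578 and 0.355% of all tested transcripts were lower and higher in the first interval, and 11.3 and 9.77% in the second.

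In *chd4*(RNAi) animals SMED30017554 measured 155, 150 and 140 RPKM at day 3, and all 3 values lay below the lowest control value of that day, 167 RPKM. Full separation of 3 libraries from 3, in either direction, has a probability of 0.1 when all orders are equally likely. The share of all transcripts that separated was not counted, so lack of overlap is a description only, here and below. The difference of -0.25 on the log2(RPKM + 0.5) scale (SE 0.216) did not pass the test (limma adjusted p = 0.851). At day 6 the libraries gave 108, 109 and 96.6 RPKM against 159, 199 and 165 RPKM in the controls, again with no overlap. By day 9 they had reached 47.6, 40.2 and 37.9 RPKM, 24.5% of the control mean of 171 ± 13.4 RPKM (SD, n = 3). This fall of -2.02 (SE 0.216) passed with an adjusted p of 8.15e-10 in limma, where 12.5% of tested transcripts were called lower. The values of day 12, 10.4, 19.3 and 12.0 RPKM, and of day 15, 4.51, 3.29 and 3.45 RPKM, were 8.30% and 2.52% of the control means. Each group mean was a smaller share of the one before it, 70.4% at day 6, 40.2% at day 9, 33.1% at day 12 and 27.0% at day 15, while the control mean never went under 89.0% of the previous one.

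*p53*(RNAi) animals followed nearly the same course up to day 9. They measured 135, 150 and 138 RPKM at day 3 and 111, 107 and 97.5 RPKM at day 6, below every control of those days. At day 9 the values were 48.6, 35.8 and 24.6 RPKM, the highest of them from the library that stood furthest from its replicates. The difference from the control was -0.32 at day 3 (adjusted p = 0.821 in limma), -0.72 at day 6 (adjusted p = 0.056) and -2.27 at day 9 (SE 0.216, adjusted p = 8.33e-11). At day 9, 11.5% of tested transcripts were called lower after *p53* RNAi. Without the library that stood apart and control replicate 2 of day 6 the difference of day 9 was -2.50. The later values were 14.6, 33.2 and 21.6 RPKM at day 12, 17.1, 9.38 and 9.13 RPKM at day 15, and 20.1 and 12.4 RPKM in both libraries of day 18. The group mean of day 15 was thus 7.98% of the control, and that of day 18 was 11.0%. Without control replicate 1 of day 12 the difference of that day was -3.68 in *chd4*(RNAi) and -2.99 in *p53*(RNAi), from -3.59 and -2.90 with it. With only replicate 2 or only replicate 3 of *p53*(RNAi) at day 18 the difference was -2.84 or -3.51.

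Set directly against each other, both knockdowns overlapped in SMED30017554 at days 3, 6 and 9, with *chd4* minus *p53* differences of 0.07, -0.01 and 0.25 on the log2 scale (SE 0.216, limma adjusted p = 0.935, 0.985 and 0.435). At these days 0.494, 4.89 and 14.7% of all tested transcripts were called lower in *chd4*(RNAi). At day 12, when 14.8% of transcripts were called lower, the groups still overlapped, with *chd4*(RNAi) at 13.9 ± 4.75 RPKM and *p53*(RNAi) at 23.1 ± 9.37 RPKM (SD, n = 3). At day 15, with 15.5% of transcripts called lower, they did not overlap, since the highest *chd4*(RNAi) library had 4.51 RPKM and the lowest *p53*(RNAi) library 9.13 RPKM. Both knockdowns share their control libraries, so the 2 differences from the control are not independent of each other.

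The call at day 6 was fragile. The difference of *chd4*(RNAi) from the control was -0.73 (SE 0.216, limma adjusted p = 0.0294), in a comparison in which 3.84% of transcripts were called lower. It was lost in 5 of 6 fits that left out a library. The difference was then -0.76, -0.76 and -0.68 without *chd4*(RNAi) replicate 1, 2 or 3 (adjusted p = 0.0616, 0.0594 and 0.125), -0.63 without control replicate 2 (adjusted p = 0.151) and -0.77 without control replicate 3 (adjusted p = 0.0506). The *p53*(RNAi) difference of that day was of like size, and 2.15% of transcripts were called lower there. It did not pass in the fit over all groups and passed in a fit of the compared groups alone, with an adjusted p of 0.00212. At day 3, 0.159% of transcripts were called lower after *chd4* RNAi and 0.694% after *p53* RNAi. Between day 3 and day 9 the difference from the control itself moved, by -1.77 in *chd4*(RNAi) (SE 0.305, limma adjusted p = 3.94e-05, with 7.28% of transcripts called lower) and by -1.95 in *p53*(RNAi) (SE 0.305, adjusted p = 1.7e-05, with 5.07% called lower). This test was added after the data were seen.

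**Figure D1:**
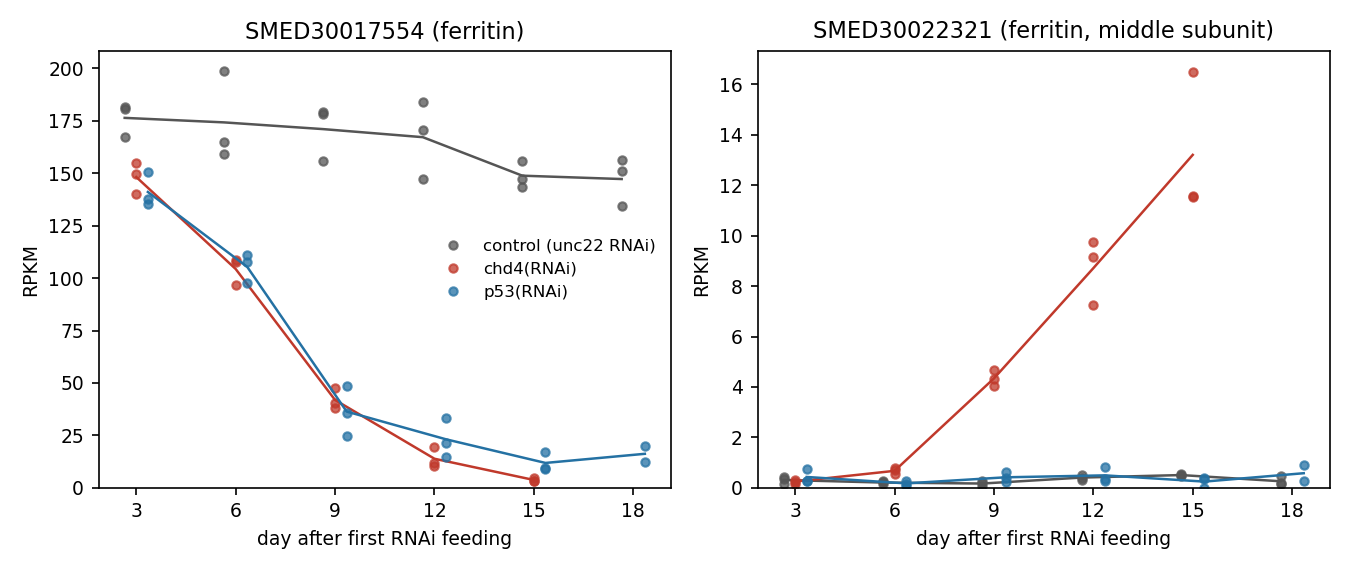
RPKM (linear vertical axes that start at 0) of SMED30017554 and SMED30022321 against the day after the first RNAi feeding, 1 point per library with lines through the group means, for control, *chd4*(RNAi) and *p53*(RNAi) animals. SMED30017554 lies below all controls of the same day in both knockdowns, down to 3.75 RPKM in *chd4*(RNAi) at day 15, while SMED30022321 exceeds 1 RPKM in *chd4*(RNAi) alone and reaches a group mean of 13.2 RPKM there.

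SMED30022321 (recovered length 682 bases) was nearly silent in the controls. Their 18 libraries lay between 0.076 and 0.551 RPKM, which is 1 to 8 reads per library. The transcript met the filter of at least 1 RPKM in at least 2 libraries only through *chd4*(RNAi), since all 9 libraries above 1 RPKM were those of *chd4*(RNAi) at days 9, 12 and 15. A transcript that enters a test in this way must differ there, so its being tested carries no weight. The p-values that set *chd4*(RNAi) at day 6 or 9 against another group are therefore taken from a fit with no filter, over all 35054 transcripts above 0 in any library. Values with the filter are printed beside some of them for comparison only. The control values, 0.349, 0.435 and 0.154 RPKM at day 3 and 0.076, 0.261 and 0.174 RPKM at day 9, did not pass a test of change (-0.27, SE 0.230, limma adjusted p = 0.784), and neither did those of day 9 and day 18 (0.17, adjusted p = 0.672).

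In *chd4*(RNAi) animals SMED30022321 was in the control range at day 3, with 0.247, 0.330 and 0.170 RPKM (log2 difference -0.11, SE 0.230, limma adjusted p = 0.965, with 0.179% of transcripts called higher). At day 6 the libraries gave 0.782, 0.549 and 0.690 RPKM and the controls 0.271, 0.222 and 0.135 RPKM, without overlap. At day 9 they gave 4.05, 4.67 and 4.30 RPKM, and the lowest of them was far above the highest control library of any day. This rise over the control of day 9 was 2.86 on the log2 scale (SE 0.227, limma adjusted p = 1.02e-12 with no filter), where 9.44% of the 35054 transcripts were called higher. Counted as reads, the 3 *chd4*(RNAi) libraries of day 9 held 193 reads and the 3 controls 7 reads, a 24.9-fold ratio after scaling to depth, with an exact 95% interval of 11.9 to 62.8 for counting error only. The log2 scale with its added 0.5 RPKM understates this change. From day 3 to day 9 the difference from the control moved by 2.97 (SE 0.321, limma adjusted p = 9.89e-09 with no filter, where 3.70% of transcripts were called higher, against 5.28% with the filter). In *p53*(RNAi) it moved by 0.27 (adjusted p = 0.668, with 5.14% called higher among those that passed the filter).

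At day 12 the *chd4*(RNAi) libraries held 9.73, 9.17 and 7.24 RPKM and the controls 0.317, 0.511 and 0.393 RPKM. At day 15 the former reached 11.5, 16.5 and 11.6 RPKM, and the controls 0.478, 0.492 and 0.551 RPKM. In reads these were 307 against 15 at day 12, a 20.6-fold ratio, and 512 against 20 at day 15, a 26.3-fold ratio. Without control replicate 1 of day 12 the log2 difference of that day was 3.27, from 3.34 with it. The *chd4*(RNAi) level was higher on every later day, while its ratio to the control had similar values on days 9, 12 and 15, because the control mean was higher on days 12 and 15 than on day 9. Its mean was 271% of that of the previous day of collection at day 6, 644% at day 9, 201% at day 12 and 152% at day 15.

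The difference at day 6 was 0.73 and did not pass with no filter (SE 0.227, limma adjusted p = 0.0556). With the filter, where 3.11% of transcripts were called higher, its adjusted p was 0.0457. It rested on 26 reads against 9, a 3.18-fold ratio with an exact interval of 1.45 to 7.72. Libraries were left out only in fits with the filter, so the value with no filter was not checked in this way. The call with the filter was lost without any 1 of the 6 libraries. The difference was 0.66, 0.81 and 0.71 without *chd4*(RNAi) replicate 1, 2 or 3 (adjusted p = 0.144, 0.06 and 0.133) and 0.79, 0.74 and 0.65 without control replicate 1, 2 or 3 (adjusted p = 0.0667, 0.109 and 0.138).

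In *p53*(RNAi) animals SMED30022321 stayed at a few reads per library. It measured 0.755, 0.256 and 0.282 RPKM at day 3, 0.0888, 0.169 and 0.271 RPKM at day 6 and 0.241, 0.390 and 0.622 RPKM at day 9. All these groups overlapped the control of their day, with log2 differences of 0.17, -0.07 and 0.44 (SE 0.230, limma adjusted p = 0.938, 0.934 and 0.169). At these days 0.0797, 1.08 and 12.3% of all tested transcripts were called higher after *p53* RNAi. At day 12 the values were 0.279, 0.845 and 0.359 RPKM. At day 15 they were 0.399, 0.341 and 0 RPKM, all below the lowest control library of 0.478 RPKM, and at day 18 they were 0.273 and 0.887 RPKM. A change of the size seen in *chd4*(RNAi) was thus absent from the values, whereas small differences were not detectable at this depth.

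The direct comparison of both knockdowns gave a *chd4* minus *p53* difference in SMED30022321 of -0.28 at day 3 (SE 0.230, limma adjusted p = 0.68) and of 2.42 at day 9 (SE 0.227, adjusted p = 1.1e-10 with no filter). In *chd4*(RNAi) 1.61% of transcripts that passed the filter were called higher at day 3 and 12.5% at day 9, where it was 8.99% with no filter. The difference of day 6, 0.80, had an adjusted p of 0.023 with no filter, a fit that was not repeated with libraries left out. With the filter it was called (adjusted p = 0.0187, with 5.08% of transcripts called higher), and this call was lost without *chd4*(RNAi) replicate 1 or 3 (0.73 and 0.79, adjusted p = 0.0787 and 0.0586) and without *p53*(RNAi) replicate 1 or 2 (0.70 and 0.80, adjusted p = 0.0923 and 0.0546). At days 12 and 15 the groups did not overlap, at 8.71 ± 1.31 against 0.495 ± 0.306 RPKM and at 13.2 ± 2.86 against 0.247 ± 0.216 RPKM (SD, n = 3), with 12.8 and 16.3% of all tested transcripts called higher.

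Ordered by group mean, SMED30017554 had 3 gaps across which libraries did not overlap. The 6 control groups and both knockdown groups of day 3 formed the upper set, from 176 to 141 RPKM. Next came both knockdowns of day 6, with 105 and 104 RPKM, followed by a run of overlapping neighbours from *chd4*(RNAi) at day 9 to *p53*(RNAi) at day 15, from 41.9 to 11.9 RPKM. *chd4*(RNAi) at day 15, with 3.75 ± 0.666 RPKM, stood alone at the bottom. For SMED30022321 the gaps lay between *chd4*(RNAi) of days 15, 12, 9 and 6, at 13.2, 8.71, 4.34 and 0.674 RPKM. From there down each group overlapped the next, to the lowest group mean of 0.170 RPKM in the controls of day 9.

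Per kilobase of transcript, SMED30017554 exceeded SMED30022321 by 261- to 2359-fold in the 18 control libraries, with a median of 554. In *chd4*(RNAi) the ratio had a median of 627 at day 3, 140 at day 6, 8.80 at day 9 and 1.66 at day 12. At day 15 it was 0.199 to 0.391, so that the rare transcript of the controls was the more abundant one of the pair in all 3 libraries, and in no other library of the study. In *p53*(RNAi) the lowest ratio was 14.0, at day 18. Over the 17 group means the log2 levels of the pair had a Pearson r of -0.67, with most of the points sharing low and level values of SMED30022321.

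Among transcripts with a description, 4 more were annotated as ferritin. Descriptions came only from the study's lists of transcripts changed in these libraries. A ferritin that did not change would not be seen here, and calls of these 4 were favoured by that choice. Those lists were drawn up on days 12 to 18, so p-values of these 4 from these days are no independent evidence. All 4 passed the filter on low values. Of these, SMED30030028 did so only through 8 *chd4*(RNAi) libraries at 1 RPKM or more, with 0 of the controls and 0 of *p53*(RNAi), and its calls carry no weight. Of the other 3, 1 was called lower and 2 higher in *chd4*(RNAi) at days 9, 12 and 15. In *p53*(RNAi), 1 was called lower and 1 higher at days 15 and 18. Among all tested transcripts 12.5% were lower and 13.1% higher at day 9 of *chd4*(RNAi), and 16.6 and 17.2% at day 12. At day 15 the shares were 19.5% lower and 17.9% higher after *chd4* RNAi and 18.2% lower and 16.2% higher after *p53* RNAi, and at day 18 they were 19.3 and 20.2%.

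SMED30027587, annotated as ferritin lower subunit, was the closest to SMED30017554 in direction. Its controls held 36.9 ± 1.06 RPKM at day 9 and 29.0 ± 0.726 RPKM at day 15 (SD, n = 3). In *chd4*(RNAi) it still overlapped the controls at day 6, with 37.0, 38.5 and 39.3 RPKM, and measured 27.9, 26.4 and 22.6 RPKM at day 9, 6.79, 12.1 and 6.62 RPKM at day 12, and 1.85, 0.883 and 1.16 RPKM at day 15. The last of these was a fall of -4.07 (SE 0.170, limma adjusted p = 1.76e-22). In *p53*(RNAi) it was already at 22.5, 23.1 and 22.2 RPKM at day 6 and at 11.8, 7.69 and 9.61 RPKM at day 9. At these days it was higher in *chd4*(RNAi) than in *p53*(RNAi), by 0.75 (adjusted p = 0.00246) and 1.37 (adjusted p = 3.85e-08), where SMED30017554 had differences of -0.01 and 0.25. At day 15 it was lower in *chd4*(RNAi), by -1.20 (adjusted p = 2.89e-07). Whether the 2 transcripts differ from each other in this was not tested.

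Its smaller early changes depended on single libraries. The difference of -0.52 from the control at day 9 of *chd4*(RNAi) (limma adjusted p = 0.019) was -0.44 without *chd4*(RNAi) replicate 3 (adjusted p = 0.105) and -0.51 without control replicate 1 or 2 (adjusted p = 0.0544 and 0.0517). That of -0.64 at day 6 of *p53*(RNAi) (adjusted p = 0.022) was -0.64, -0.66 and -0.63 without *p53*(RNAi) replicate 1, 2 or 3 (adjusted p = 0.0657, 0.0667 and 0.0865) and -0.57 without control replicate 2 (adjusted p = 0.138).

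SMED30002458 was annotated as soma ferritin after a cytosolic ferritin of snail body tissue. It was the second most abundant of the 6 annotated ferritins in the controls, at 34.4 to 39.5 RPKM in the group means. In *chd4*(RNAi) it rose to 51.7, 49.7 and 47.7 RPKM at day 9, 78.4, 65.0 and 76.1 RPKM at day 12 and 87.9, 85.1 and 75.1 RPKM at day 15. The last was 2.40-fold the control of 34.4 ± 0.627 RPKM, a difference of 1.25 (SE 0.0705, limma adjusted p = 2.79e-18). *p53*(RNAi) was lower than the control at day 9 by -0.31 (adjusted p = 0.00084), and higher at day 15 by 0.24 (adjusted p = 0.00575) and at day 18 by 0.54 (adjusted p = 4e-07), at 51.0 ± 2.72 RPKM there (SD, n = 2). The call of day 9 was lost in a fit of the compared groups alone (adjusted p = 0.0827).

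SMED30013255, annotated as ferritin, spleen middle subunit, and SMED30030028, also annotated as soma ferritin, were low in the controls, like SMED30022321. In *chd4*(RNAi) SMED30013255 had 3.16, 3.44 and 2.79 RPKM at day 6 against 0.266, 0.218 and 0.198 RPKM in the controls, a difference of 2.32 (SE 0.219, limma adjusted p = 7.06e-10). It measured 7.51, 7.57 and 8.05 RPKM at day 9 and 3.46, 3.81 and 5.36 RPKM at day 15, when the control mean was 0.967 RPKM. SMED30030028 had 0.217, 0.400 and 0.575 RPKM at day 6, 2.18, 3.03 and 2.95 RPKM at day 9, and 1.13, 1.14 and 0.769 RPKM at day 15. Its 3 libraries of day 9 held 146 reads and the 3 controls 2 reads, a 66.0-fold ratio with an exact interval of 18.0 to 550. At day 15, 47 reads stood against none in the controls, at least 16.1-fold higher when the controls are set at a floor of 3 reads over the group.

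These 2 transcripts had their highest *chd4*(RNAi) means at day 9, whereas SMED30022321 had its highest at day 15. From day 9 to day 15 the mean of SMED30013255 went from 7.71 to 4.21 RPKM and that of SMED30030028 from 2.72 to 1.01 RPKM, and SMED30022321 went from 4.34 to 13.2 RPKM. None of the *p53*(RNAi) differences of SMED30013255 and SMED30030028 passed the test on any day (limma adjusted p between 0.326 and 0.97).

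**Figure D2:**
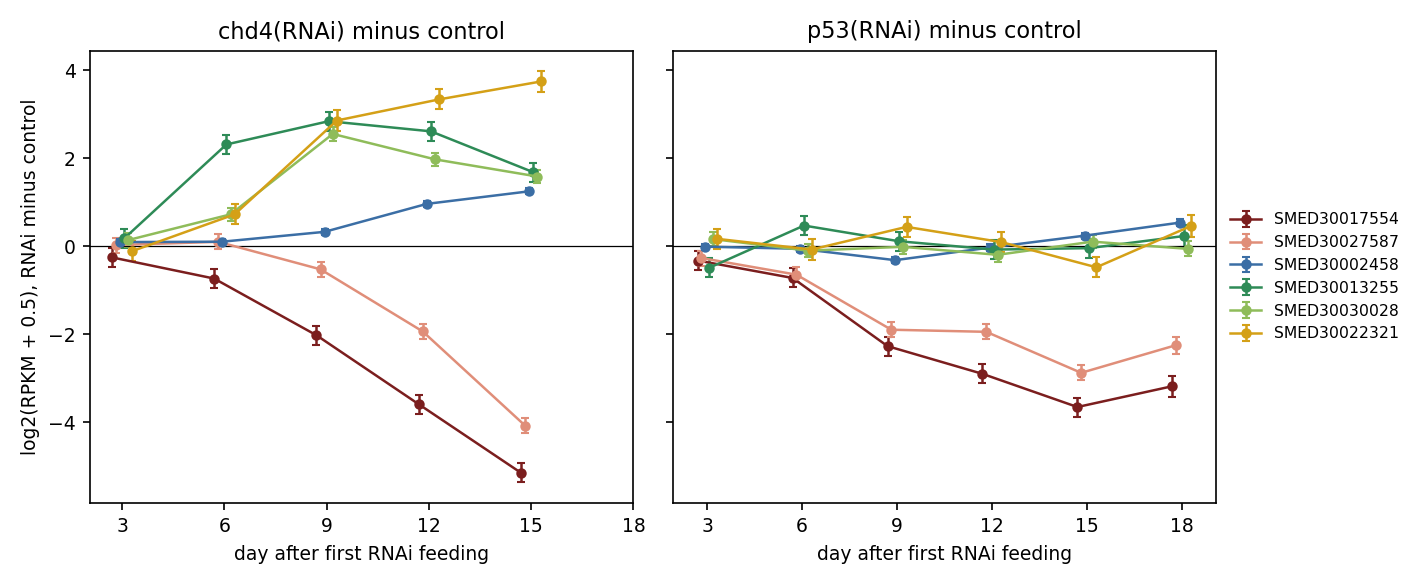
Difference from the control of the same day on the log2(RPKM + 0.5) scale (points, with SE as bars) against the day after the first feeding, for the 6 ferritin transcripts in *chd4*(RNAi) and *p53*(RNAi). SMED30017554 and SMED30027587 are low in both panels, to -5.15 and -4.07 at day 15 of *chd4*(RNAi), and the 3 transcripts that are rare in controls are high in the *chd4*(RNAi) panel alone.

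The 6 annotated transcripts need not be all ferritins of the animal. Their sum was 253 ± 9.79 RPKM in the controls of day 3 and 214 ± 6.80 RPKM in those of day 15 (SD, n = 3). SMED30017554 made up 68.9 to 70.2% of the control sums at all days, and SMED30002458 made up 15.2 to 16.6%. In *chd4*(RNAi) the sum was 228 ± 10.1 RPKM at day 3, 132 ± 8.82 RPKM at day 9 and 106 ± 7.56 RPKM at day 15. By day 15 SMED30017554 made up 3.53% of it, SMED30022321 made up 12.4% and SMED30002458 made up 77.9%. In *p53*(RNAi) the sum was 79.1 ± 15.9 RPKM at day 9 and 57.5 ± 8.08 RPKM at day 15, with 20.6% from SMED30017554 and 0.429% from SMED30022321 at day 15. The sums of the 2 knockdowns did not overlap at day 15, at 97.5 to 111 RPKM in *chd4*(RNAi) and 52.1 to 66.8 RPKM in *p53*(RNAi). In whole worms, fewer cells of a type that expresses a transcript and less of that transcript per cell cannot be told apart.

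**Figure D3:**
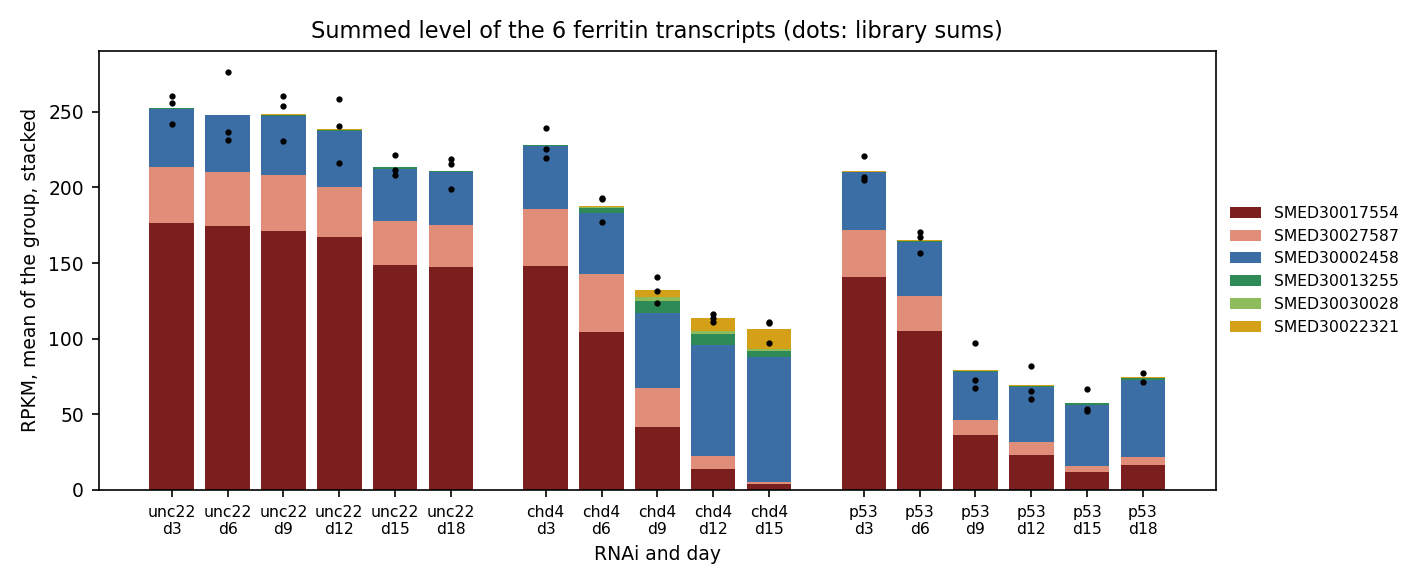
Group means of the 6 ferritin transcripts in RPKM, stacked from 0, for each RNAi and day, with dots for the sum in each library. The control bars keep about the same make-up from day 3 to day 18, while SMED30002458 holds 77.9% of the *chd4*(RNAi) bar of day 15.

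Other transcripts annotated as handling iron were mostly lower in the same animals. Their descriptions, and those of the heme, copper and oxidant transcripts below, came from the study's lists of transcripts changed in these libraries. Counts, directions and p-values of transcripts picked in this way are no independent evidence, and the shares of all transcripts are no fair baseline for them. Of 5 transcripts for iron transport and iron-sulfur proteins, 5 were called lower at days 9, 12 and 15 of *chd4*(RNAi), beside 12.5, 16.6 and 19.5% of all tested transcripts, with a median difference of -1.26 at day 15, where the median over all tested transcripts was 0.00 when rounded. In *p53*(RNAi) 4 of 5 were lower at day 18, beside 19.3% of all, with a median of -0.46. Natural resistance-associated macrophage protein 2 (SMED30014808), the family of carriers that bring ferrous iron into cells, went from 37.6 ± 1.33 to 15.4 ± 0.549 RPKM at day 15 of *chd4*(RNAi), a difference of -1.26 (SE 0.0642, limma adjusted p = 1.04e-19). Ferric-chelate reductase 1 (SMED30033224), which reduces ferric to ferrous iron, was lower at day 15 of *chd4*(RNAi) by -2.26 (adjusted p = 2.88e-23), and its difference at day 18 of *p53*(RNAi) was -0.01 (adjusted p = 0.966). The transferrin-like SMED30034820, from a family of secreted iron carriers, was low throughout, at 3.27 RPKM in the controls of day 15 and 1.02 RPKM in *chd4*(RNAi).

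The heme and globin list was split. Of its 5 transcripts 2 were lower and 3 higher at day 15 of *chd4*(RNAi), where 19.5 and 17.9% of all tested transcripts were. In *p53*(RNAi) the counts of day 18 were 2 lower and 2 higher, where 19.3 and 20.2% of all were. The enzymes coproporphyrinogen-III oxidase (SMED30029098) and uroporphyrinogen decarboxylase (SMED30003163), which act late and midway in heme synthesis, were lower by -1.47 and -0.68 at day 15 of *chd4*(RNAi). Delta-aminolevulinic acid dehydratase (SMED30021238), an early enzyme of the same path, was higher there, with 41.9 ± 7.48 against 14.5 ± 0.871 RPKM and a difference of 1.48 (limma adjusted p = 7.31e-17). In *p53*(RNAi) it was 14.8 ± 1.55 RPKM at day 15, a difference of 0.02 from the control (adjusted p = 0.896). The globins SMED30011726 and SMED30034259, which bind oxygen through heme, were higher by 1.08 and 0.98 at day 15 of *chd4*(RNAi) and by 0.78 and 0.72 at day 18 of *p53*(RNAi).

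Copper and iron handling meet in many animals through copper-dependent ferroxidases. Of 6 copper transport transcripts 5 were lower and 1 higher at day 15 of *chd4*(RNAi), with 4 lower and 1 higher at day 18 of *p53*(RNAi), and the same shares of all transcripts (19.5 and 17.9%, 19.3 and 20.2%) apply. The largest was SMED30021535, a high affinity copper uptake protein, at 0.50 ± 0.429 against 13.9 ± 0.986 RPKM in *chd4*(RNAi) at day 15 (-3.93, limma adjusted p = 3.02e-18). Both transcripts annotated as copper-transporting ATPase 2 went in opposite directions at that day, SMED30008855 by -3.22 and SMED30009791 by 1.17. Among 5 oxidant defence transcripts 3 were lower and 1 higher at day 15 of *chd4*(RNAi), and 2 were lower and 2 higher at day 18 of *p53*(RNAi), beside these same shares. The 2 higher became 1 without *p53*(RNAi) replicate 3 of day 18. Thioredoxin peroxidase 2 (SMED30030295), which removes peroxides, was -3.16 at day 18 of *p53*(RNAi) and -0.61 at day 15 of *chd4*(RNAi), and superoxide dismutase (SMED30018398) was 1.48 and -0.21 in the same groups (adjusted p = 0.121 for the last).

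**Figure D4:**
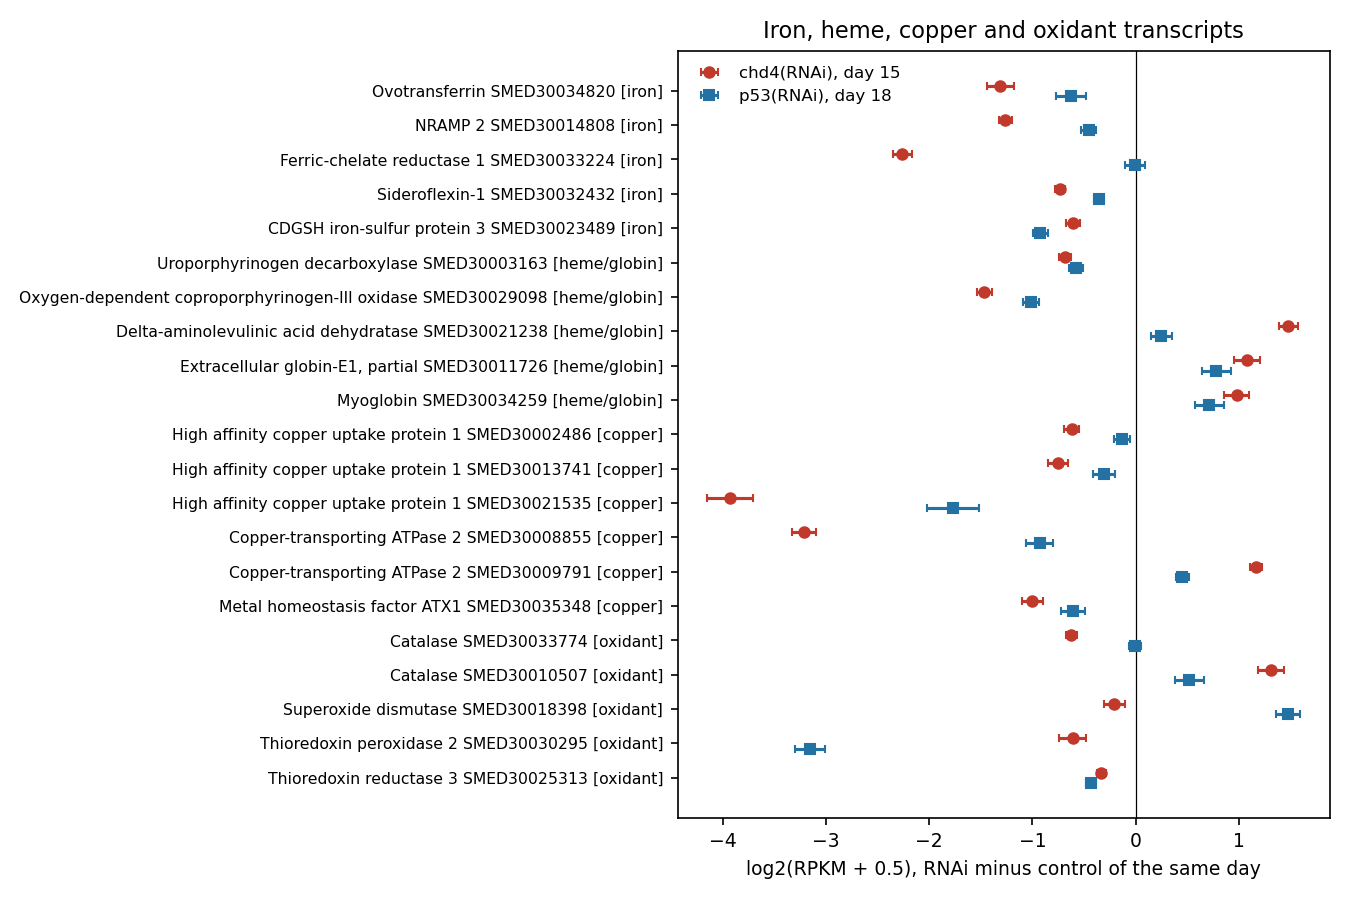
Difference from the control of the same day on the log2(RPKM + 0.5) scale (points, with SE as bars) for 21 transcripts of iron, heme, copper and oxidant handling, in *chd4*(RNAi) at day 15 and *p53*(RNAi) at day 18. The 5 iron transcripts lie left of 0 in *chd4*(RNAi), and 1 copper uptake transcript reaches -3.93.

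Markers of several cell types moved in the same animals, and their part in the ferritin levels was not tested. The study assigned these markers to patterns by in situ hybridization after picking them from these libraries as lower, so their direction is no independent evidence. Of 22 transcripts with a gut pattern 22 were lower at day 9 and at day 15 of *chd4*(RNAi), with medians of -1.32 and -3.21, beside 12.5 and 19.5% of all tested transcripts. Their summed level was 2474 to 2666 RPKM at day 9 against 5598 to 6415 RPKM in the controls, and 700 to 745 RPKM at day 15 against 5393 to 6624 RPKM. In *p53*(RNAi) 21 of 22 were lower at day 9 and 22 of 22 at day 18, beside 11.5 and 19.3% of all, with medians of -0.74 and -1.16 and a sum of 2407 to 3074 RPKM at day 18 against 5112 to 6198 RPKM. None of these markers was at 0 in all libraries of a group.

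The transcripts of the *AGAT-1* mesenchymal pattern, which marks late epidermal progeny, were lower in 39 of 41 cases at day 15 of *chd4*(RNAi) and 41 of 41 at day 18 of *p53*(RNAi), with sums of 1080 to 1176 RPKM against 4220 to 4848 RPKM and of 489 to 626 RPKM against 3898 to 4236 RPKM. Of 5 transcripts with an epidermal pattern 3 and 5 were lower in these groups. Of 7 with a neoblast pattern, the pattern of planarian stem cells, 2 were lower at day 15 of *chd4*(RNAi) and 7 at day 18 of *p53*(RNAi). Among all tested transcripts 19.5 and 19.3% were lower in these groups, so that 2 of 7 is near the share of all transcripts. At day 9, fits that left out a library gave 37 of 41 *AGAT-1* pattern transcripts lower in *chd4*(RNAi) and 41 of 41 in *p53*(RNAi). Of the epidermal pattern 3 and 4 were lower, and 0 and 1 higher. Of the neoblast pattern 0 and 1 were lower, and 1 and 2 to 5 higher. With all libraries, 12.5 and 11.5% of tested transcripts were lower that day, and 13.1 and 12.3% higher. The neoblast marker *smedwi-1* (SMED30007406) stood at 149 ± 10.4 against 163 ± 3.79 RPKM at day 15 of *chd4*(RNAi), where SMED30017554 was at 2.52% of its control. It was at 21.6 ± 5.79 against 163 ± 3.10 RPKM at day 18 of *p53*(RNAi), where SMED30017554 was at 11.0%.

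Across the 17 group means on the log2(RPKM + 0.5) scale, the transcripts most like SMED30017554 among 25078 others were SMED30024429, which has no description (Pearson r 0.997), the tenascin-like SMED30004081 (0.996), the vitellogenin SMED30003809 (0.995), SMED30020519 without description (0.991) and SMED30034597 (0.987), which like SMED30000013 (0.987) is annotated as the matrix protein ig-h3. SMED30013193, annotated as spartin, had an r of 0.987. Vitellogenin, a large carrier of lipid into yolk in egg-laying animals, belongs to the gut pattern list, and measured 1.62 RPKM at day 15 of *chd4*(RNAi) against 96.9 RPKM in the control. SMED30034597 measured 0.825 against 226 RPKM there. Spartin spanned a much smaller range, with 25.9 against 43.6 RPKM, so that a high r says nothing of the size of a change. SMED30027587 came at place 74 with an r of 0.96 and *AGAT-1* (SMED30018353) at place 291 with 0.93. The points share controls and time course, and the groups that led to the choice of the pair are among them.

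The same ranking for SMED30022321 gave SMED30027554 (0.986), annotated as a beta subunit of an L-type calcium channel, SMED30035896 (0.985), the kinase AFC2-like SMED30006807 (0.984), SMED30007374 (0.983) and SMED30026542 (0.982). Among transcripts with a description, SMED30018781 (venom allergen 5, 0.982), SMED30008091 (kinase sepA, 0.978) and SMED30011909 (mitogen-activated protein kinase kinase 10, 0.973) came next. SMED30035896 and SMED30026542 were rare in controls too, with 57.5 against 1.05 RPKM and 36.8 against 0.149 RPKM at day 15 of *chd4*(RNAi). SMED30008091 was at 351 against 90.3 RPKM, a transcript with a high control level. Of the other ferritins SMED30002458 came closest (0.90, place 175), followed by SMED30030028 (0.89, place 211) and SMED30013255 (0.87, place 264).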

How the data were processed

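Whole-worm RNA was sequenced as 50-base single reads from stranded libraries. Per the labels and methods, the authors used CASAVA 1.8.2 in sorting reads by library. They aligned reads with Bowtie (up to 2 mismatches and 5 places) to assembled transcripts, so similar ferritins could share reads. The authors counted reads with their own script and tested them with edgeR. They removed 1 outlier library. The deposited values are RPKM, and how the authors scaled them is not given in the sources used here. Read numbers, depth and lengths were recovered from the steps of the RPKM values and used as descriptions only.

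The test was limma 3.58.1 (R 4.3.3) fitted to log2(RPKM + 0.5) with a mean-variance trend, over 50 libraries in 17 groups and the 25079 transcripts that reached 1 RPKM in 2 or more libraries (9978 left out). P-values were two-sided and adjusted by the Benjamini-Hochberg method per comparison, and a call is an adjusted p under 0.05 with no minimum fold. The test was checked on simulated data. Python 3.11.15, numpy 2.4.6, pandas 2.3.3, scipy 1.17.1 and matplotlib 3.10.9 were used.

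The pair and all lists were chosen with earlier results of these data known. Descriptions came only from the study's lists of transcripts changed in these libraries. Named were the pair, the transcripts of the ferritin, iron, heme, copper, oxidant and marker lists, and per member the 5 highest r over all transcripts and over described ones. Alternatives were pseudocounts of 0.1 and 2, no filter, median-ratio factors, a replicate block, only the groups compared, and leaving out each replicate. Intervals cover counting error only.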

Additional observations from a re-analysis of the deposited data

Results flagged for a closer look

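The effect of RNAi differed between day 3 and day 9, in a test of that difference added after the data were seen. For SMED30017554 the *chd4*(RNAi) difference from the control moved by -1.77 between these days (SE 0.305, limma adjusted p = 3.94e-05) and the *p53*(RNAi) difference by -1.95 (SE 0.305, adjusted p = 1.7e-05), with all 3 libraries of each knockdown below the controls at both days. For SMED30022321 the *chd4*(RNAi) difference moved by 2.97 (SE 0.321, adjusted p = 9.89e-09 in a fit with no filter on low values, since the filter was met only through *chd4*(RNAi)), with 3 of 3 libraries above all controls at day 9. Among transcripts that passed the filter 7.28% moved down and 5.28% up in this way after *chd4* RNAi (3.70% up with no filter), and 5.07% moved down after *p53* RNAi.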

How the results depend on the processing

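For the pair, 25 of 36 results were unchanged in every alternative run, 5 changed their call in at least 1, and 6 moved in size only. Tested results were compared by call and sign alone, and described results by size and sign. A tested result that kept its call could thus still move in size. No called value changed sign. On the log2 scale the size for the rare SMED30022321 follows the pseudocount, also at day 9, where only its call was compared. With 0.1 RPKM added, *chd4*(RNAi) differed from the control by 1.34 at day 6 (limma adjusted p = 0.0656), 4.13 at day 12 and 4.44 at day 15, *p53*(RNAi) by -1.11 at day 15, and *chd4*(RNAi) from *p53*(RNAi) by 4.0 and 5.55 at days 12 and 15. With 2 RPKM added, these were 0.27 (adjusted p = 0.108), 2.15 and 2.58 against the control and 0.30 (day 6), 2.10 and 2.75 against *p53*(RNAi), and SMED30017554 differed by -4.72 in *chd4*(RNAi) at day 15 and by -0.71 in *p53*(RNAi) at day 6 (adjusted p = 0.0346). Without the filter the day 6 difference of SMED30022321 in *chd4*(RNAi) stayed at 0.73 with an adjusted p of 0.0556. With only the groups compared it was 0.73 (adjusted p = 0.117), and 0.80 against *p53*(RNAi) (adjusted p = 0.0539), while SMED30017554 passed in *p53*(RNAi) at day 3 (-0.32, adjusted p = 0.042) and day 6 (-0.72, adjusted p = 0.00212). Without *p53*(RNAi) replicate 1 of day 9 and control replicate 2 of day 6, chosen after seeing the data, the day 6 differences in *chd4*(RNAi) were -0.63 for SMED30017554 (adjusted p = 0.112) and 0.74 for SMED30022321 (adjusted p = 0.0941).

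Leaving out each replicate gave -0.79 to -0.63 for SMED30017554 in *chd4*(RNAi) at day 6, 0.65 to 0.81 for SMED30022321, and 0.70 to 0.90 for SMED30022321 against *p53*(RNAi). The other member calls held when a replicate was left out, and all of these fits kept the filter on low values. In no comparison did every same-numbered pair of replicates correlate above 0.1. Differently numbered pairs were not compared, so this check cannot tell whether replicate numbers paired the samples. With the replicate block SMED30017554 passed in *p53*(RNAi) at day 6 (-0.72, adjusted p = 0.037), and no other call of the pair changed. Depth limits SMED30022321 and SMED30030028, which had at most 8 reads per control library, and the cause of these dependences was not tested.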
